A study of Mus musculus with 24 samples.

Results

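The female p53 R172H line was compared with the female p53 knockout (KO) line by RNA-seq across the 14427 genes of the deposited table. The 6 libraries, 3 of each line, were the ones whose column names carry the female culture f1 and either R172H or Cre alone, out of 24 libraries from 8 lines in the series. Both lines came from 1 female culture of cortical astrocytes, made from at least 3 pooled pups of postnatal day 1 that carried 1 floxed and 1 deleted *Trp53* allele (*Trp53* f/-). The labels give the strain background as C57BL/6, and the parents were of the strains B6.129S2-Trp53tm1Tyj/J and B6.129P2-Trp53tm1Brn/J. For the R172H line a retrovirus brought in the mutant *Trp53* coding sequence joined to eGFP, cells were sorted for eGFP, and a lentivirus with Cre and a puromycin resistance gene then removed the floxed allele. The KO line received only the Cre lentivirus and puromycin, with no empty retrovirus and no sort, so the mutation cannot be told apart from the vector, its insertion sites and the sort. Cells were used at passages 10 to 15. Replicates were separate thaws and platings of a line and not separate animals, so the p-values measure the spread between platings of 1 culture per line.

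p53 is a transcription factor that restrains cell division and can trigger cell death after DNA damage and other stress. R172H is the mouse counterpart of a frequent human tumor mutation in the DNA-binding domain. Astrocytes are the glial cells that support neurons, clear glutamate and change their gene expression after injury and infection. In an interferon response, cells that sense nucleic acid make type I interferons, whose receptors act through JAK kinases on STAT and IRF transcription factors, and these bind a short element in the promoters of antiviral genes.

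*Trp53* itself was the check of the labels. Its level is given, as for all genes, in CPM, read counts scaled to a library of 1000000 reads, with the replicates of a line in the order of their numbers. It measured 51.9, 46.5 and 48.4 CPM in KO and 1889.7, 2020.5 and 1957 CPM in R172H, without overlap between the lines. The log2 fold change of R172H against KO was 5.32 (SE 0.0641), with an adjusted p of 2.46e-26 in edgeR's quasi-likelihood test with Benjamini-Hochberg adjustment over all genes. The count adds the reads of the vector's transcript to any made from the recombined alleles. The male lines of the same design differed by 5.49, and the 2 differences were not told apart (difference -0.17, edgeR adjusted p 0.0586). The other mutant lines of the female culture measured 593 ± 18 CPM (SD, n = 3) for Y202C and 3709 ± 162 CPM for Y217C. The mutated codon is shown here in its reference form, to place the substitution in the gene. It lies in exon 5 on the plus strand of chromosome 11 at chr11:69588511-69588513 of GRCm38, in the transcript of 390 residues where the mutated codon encodes arginine, and is in capitals between 12 bases on each side.
Trp53: gaggtcgtgagaCGCtgcccccaccat

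Sequencing was deep in all 6 libraries, with 80995918 to 105943244 counts in KO and 95362078 to 136503809 in R172H. A count of 3 corresponded to 0.0229 to 0.0384 CPM, the least read here as a level. Mitochondrial genes held 1.45% to 1.57% of the counts in KO and 1.72% to 2.21% in R172H, ranges that did not overlap. The *Xist* transcript, which silences an X chromosome in female cells, measured 278, 242 and 274 CPM in KO and 449.8, 522 and 591 CPM in R172H. Of the 7 chromosome Y genes tested, 4 were called higher and 1 lower in R172H at an adjusted p of 0.05 or less. Together that is 71.4%, where 69.7% of all genes were called in either direction. Of the 7, *Ddx3y*, *Eif2s3y*, *Kdm5d* and *Uty* lay between 0 and 0.0853 CPM in each of the 6 libraries, and some of the higher calls were among them. The pseudogene *Mid1-ps1* measured 1.47, 1.36 and 1.71 CPM in KO and 14, 9.89 and 9.36 CPM in R172H, *Gm21742* 1.14, 1.04 and 1.41 CPM in KO and 1.97, 2.19 and 1.53 CPM in R172H, and *Gm47283* 84.3, 75.1 and 81.4 CPM in KO and 28.7, 23.2 and 33.9 CPM in R172H.

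The markers of the labelled cell type were only in part present. Of 9 markers that define astrocytes, *Gfap*, the filament protein of mature astrocytes, measured 0.137, 0.0897 and 0.145 CPM in KO and 0.0424, 0.064 and 0.0381 CPM in R172H. *Aqp4*, their water channel, was at 0 in 5 libraries and at 0.0213 CPM in the other. The calcium-binding protein gene *S100b* ranged from 0.0676 to 0.384 CPM and the glutamate transporter gene *Slc1a2* from 0.171 to 0.377 CPM. These 4 defining markers were at or near 0 in both lines, which goes against the label in part, so the lines are called here by their genotype. Of the other defining markers, *Slc1a3* and *Gja1* were expressed in both lines and *Aldh1l1* mainly in R172H, with values given below. The paper assessed the purity of its astrocyte cultures by immunofluorescence for the GFAP protein, which is not a measure of RNA. The transcription factor gene *Sox9* measured 113, 112 and 114 CPM in KO and 186, 185 and 176 CPM in R172H, and *Glul*, which makes glutamine synthetase, 44.8, 43.5 and 43 CPM in KO and 30.8, 32 and 32.1 CPM in R172H. Of the whole list of 23 tested astrocyte genes, 11 were higher and 4 lower in R172H, and their summed level was 1774 to 1866 CPM in KO and 2079 to 2278 CPM in R172H.

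Gene expression differed broadly between the lines. Of the 14427 genes tested, 4961 (34.4%) were higher and 5099 (35.3%) lower in R172H at an adjusted p of 0.05 or less, together 69.7%. With so many genes past the threshold, a second count took a log2 fold change over 1 as well, which left 1574 higher genes (10.9%) and 909 lower genes (6.3%). Above a log2 fold change of 2 there were 713 higher (4.94%) and 299 lower genes (2.07%), and above 3 there were 423 (2.93%) and 145 (1.01%). The larger the difference asked for, the more of the genes were higher. The median log2 fold change over all genes was -0.01 and the median size of the change 0.39, against a median size of 0.19 between the same lines of the male culture. The libraries of the lines did not overlap for 10873 genes (75.4%), with R172H higher for 36.8% and lower for 38.6%. In the counts that follow, a gene is called higher or lower only when it passed the adjusted p, and each list is read against these shares of all genes. The genes tested are those over 1 CPM in at least 2 of the 24 libraries. A gene near 0 in the other lines, such as the chemokine gene *Cxcl9*, was tested only through R172H and could only be called higher. *Cxcl9* had no read in KO and at most 0.145 CPM in the mean of any other line. The same holds in reverse for genes high only in KO. A value in parentheses after the CPM of a gene is its log2 fold change of R172H against KO, past the adjusted p in edgeR's test unless stated.

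**Figure D1:**
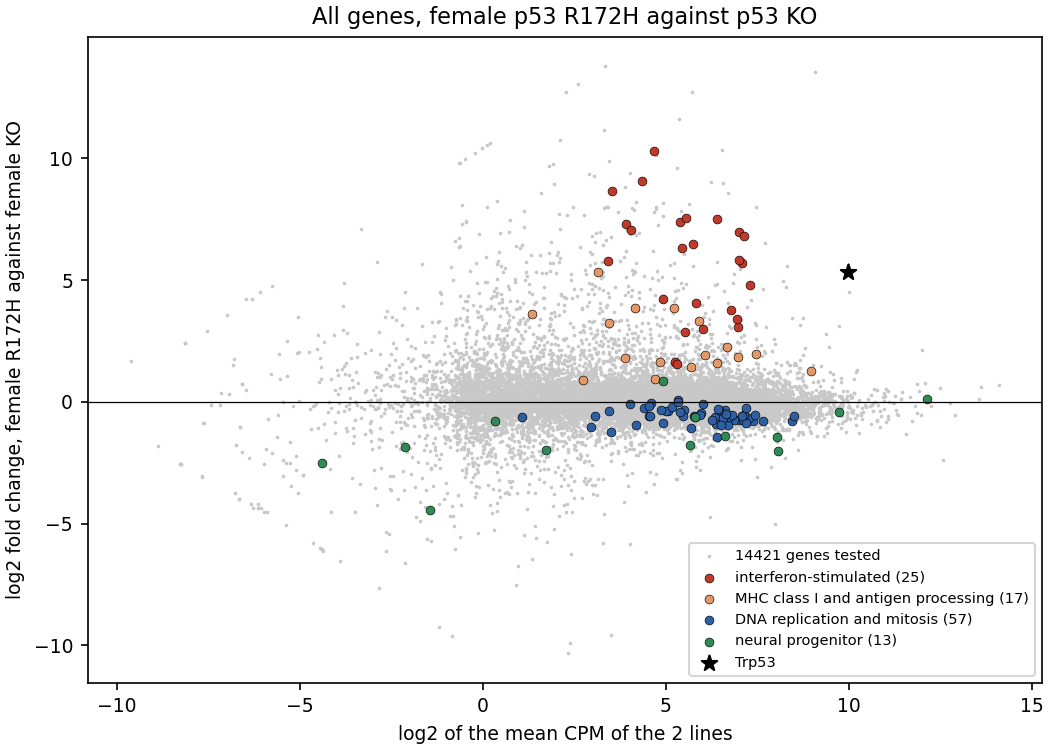
Log2 fold change of female R172H against female KO (vertical axis) by the log2 of the mean CPM of the 2 lines (horizontal axis) for 14421 genes, with 6 genes at 0 in all 6 libraries not drawn. The 25 interferon-stimulated genes lie between 1.54 and 10.3, all 17 genes of MHC class I and antigen processing lie above 0, and the 57 genes of DNA replication and mitosis lie between -1.44 (*Rrm2*) and 0.07 (*Gins4*).

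Interferon-stimulated genes had the largest median of all lists examined. All 25 were higher in R172H, each with a log2 fold change over 1 and without overlap between the lines, where 34.4% of all genes were higher and 10.9% past a log2 fold change of 1. Their median log2 fold change was 5.83, and their summed level was 163 to 171.7 CPM in KO and 2762 to 3818 CPM in R172H. This list, like the others, was chosen with earlier results of these data known, so its counts and its rank are a description. As these are bulk samples, a change in the share of cells that express a gene cannot be told apart from a change in the RNA per cell.

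The promoters of 5 of these genes are shown because they hold letters that match the core of the interferon-stimulated response element. Each is the 130 bases before the start site in RefSeq's GRCm38.p6, read along the gene's strand, with matches to the core GAAANNGAAA or its reverse complement TTTCNNTTTC in capitals. *Isg15* is at chr4:156200819-156200948 (minus strand), *Ifit1* at chr19:34640759-34640888 (plus), *Oas1a* at chr5:120907526-120907655 (minus), *Rsad2* at chr12:26456453-26456582 (minus) and *Gbp2* at chr3:142620533-142620662 (plus).
Isg15: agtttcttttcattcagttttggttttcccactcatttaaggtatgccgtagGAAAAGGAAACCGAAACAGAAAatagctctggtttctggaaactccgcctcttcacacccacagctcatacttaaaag
Ifit1: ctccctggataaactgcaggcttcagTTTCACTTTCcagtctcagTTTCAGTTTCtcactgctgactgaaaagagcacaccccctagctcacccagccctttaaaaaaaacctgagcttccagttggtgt
Oas1a: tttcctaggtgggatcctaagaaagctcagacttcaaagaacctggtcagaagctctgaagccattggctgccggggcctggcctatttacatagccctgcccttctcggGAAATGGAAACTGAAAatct
Rsad2: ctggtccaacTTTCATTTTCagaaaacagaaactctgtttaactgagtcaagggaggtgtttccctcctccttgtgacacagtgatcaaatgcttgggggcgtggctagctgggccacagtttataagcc
Gbp2: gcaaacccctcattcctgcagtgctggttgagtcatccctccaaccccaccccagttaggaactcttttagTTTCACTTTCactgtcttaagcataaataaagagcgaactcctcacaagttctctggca

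*Isg15* held 3 overlapping matches, *Ifit1* 2 separate ones, *Oas1a* 2 overlapping ones, and *Rsad2* and *Gbp2* 1 each. The core was searched on both strands in windows of 300 bases, 250 before and 50 after each start site, and it was chosen after the expression values were seen. RefSeq windows were found for 10290 of the genes tested, with 13206 windows in all, of which 3.09% held a match. Among the interferon-stimulated genes 12 of 22 windows did (54.5%), in 12 of the 19 genes with a window. A match was found in 3.44% of all 32851 windows of the reference. A match is a string of letters and not a shown binding site.

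Across all genes with a window, those with more matches were more often higher. Matches were summed over all windows of a gene and overlapping ones were counted separately, so 1 stretch of bases can count as 2 matches. Of 9901 genes without a match, 10.3% were higher by a log2 fold change over 1, of 339 genes with 1 match 26.5%, and of 50 genes with 2 or more matches 58.0%. In the last group no gene was lower by that much, against 6.16% of the genes without a match. Genes that were lower by a log2 fold change over 1 held a match in 2.42% of their 828 windows and genes higher by as much in 8.49% of 1495. The interferon-stimulated genes are among these genes, so the counts are not separate from the list.

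Among the antiviral effectors, *Isg15*, a ubiquitin-like protein that is attached to other proteins, rose from 4.26, 4.47 and 4.48 CPM in KO to 299.5, 222 and 229 CPM in R172H. Its log2 fold change was 5.83 (SE 0.22, edgeR adjusted p 6.25e-17), a 56.7-fold difference. *Ifit1*, which binds viral RNA that lacks the cap marks of the host, measured 4.96, 4.65 and 5.5 CPM in KO and 318, 256 and 225 CPM in R172H, 52.8-fold higher. *Ifit3*, its partner, went from 2.13, 1.64 and 2.17 CPM to 327, 232 and 199 CPM, though it shares near-identical sequence with *Ifit3b* and reads may be split between them. *Rsad2*, which makes the antiviral enzyme viperin, measured 0.295, 0.256 and 0.174 CPM in KO and 38.5, 29.8 and 29.4 CPM in R172H. Every R172H library was above every KO library for each of these genes.

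The largest log2 fold changes of the list belonged to genes nearly silent in KO. *Oas1a*, an enzyme that senses double-stranded RNA and activates RNase L, measured 0.0589, 0.0256 and 0.029 CPM in KO and 64.7, 45.3 and 42 CPM in R172H (log2 fold change 10.30, SE 0.368). *Mx1*, a GTPase that blocks virus replication, measured 0.0687, 0.0769 and 0.0773 CPM in KO and 49.3, 37.1 and 34.9 CPM in R172H (9.06). *Oas2* had 0.0589, 0.0256 and 0.0773 CPM in KO, close to the floor of 3 counts, and 27.6, 23.1 and 18.5 CPM in R172H. The Oas genes lie in a cluster of close copies, so their separate levels are uncertain. The smallest changes of the list were those of *Ifi27*, from 16.9, 18.2 and 20.3 to 56.2, 54.3 and 60.3 CPM (1.62), and *Ifit2*, from 19.3, 21.3 and 19.4 to 64.7, 57.9 and 51.8 CPM (1.54).

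The transcription factors of the pathway rose with their targets. *Stat2* measured 21.7, 20.5 and 22.3 CPM in KO and 252, 222 and 201 CPM in R172H (log2 fold change 3.38, SE 0.0912), and *Irf9* 15.3, 14.2 and 14 CPM in KO and 124, 112 and 109 CPM in R172H (2.99). *Irf7*, the factor that amplifies type I interferon production, measured 1.14, 0.961 and 1.06 CPM in KO and 102, 77.2 and 78.6 CPM in R172H (6.34). *Usp18*, which removes ISG15 from proteins and dampens the receptor, measured 0.54, 0.615 and 0.357 CPM in KO and 113, 83.1 and 80.4 CPM in R172H (7.53). All 4 genes had reads in KO, though *Usp18* was under 1 CPM in every KO library, and no R172H library was below 77.2 CPM in any of them.

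The 3 R172H libraries were not equal in these genes. Replicate 1 was the highest for 24 of the 25 and replicate 3 the lowest for 21, whereas over 13118 genes above 1 CPM in the R172H line replicate 1 was the highest for 37.7% and replicate 3 the lowest for 33.8%. Replicate 1 was also the highest for 16 of the 17 genes of MHC class I and antigen processing, and the lowest for 27 of 28 mitosis genes and 27 of 29 DNA replication genes, where 30.3% of the 13118 genes were lowest in it. The differences between the libraries of R172H were smaller than the gap to KO in each of the 25 interferon-stimulated genes. Without R172H replicate 1, all 25 were still higher (median 5.68), as were all 17 MHC class I and antigen processing genes, and 23 DNA replication genes (median -0.50) and 26 mitosis genes (-0.51) were lower. What sets replicate 1 apart was not tested.

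**Figure D2:**
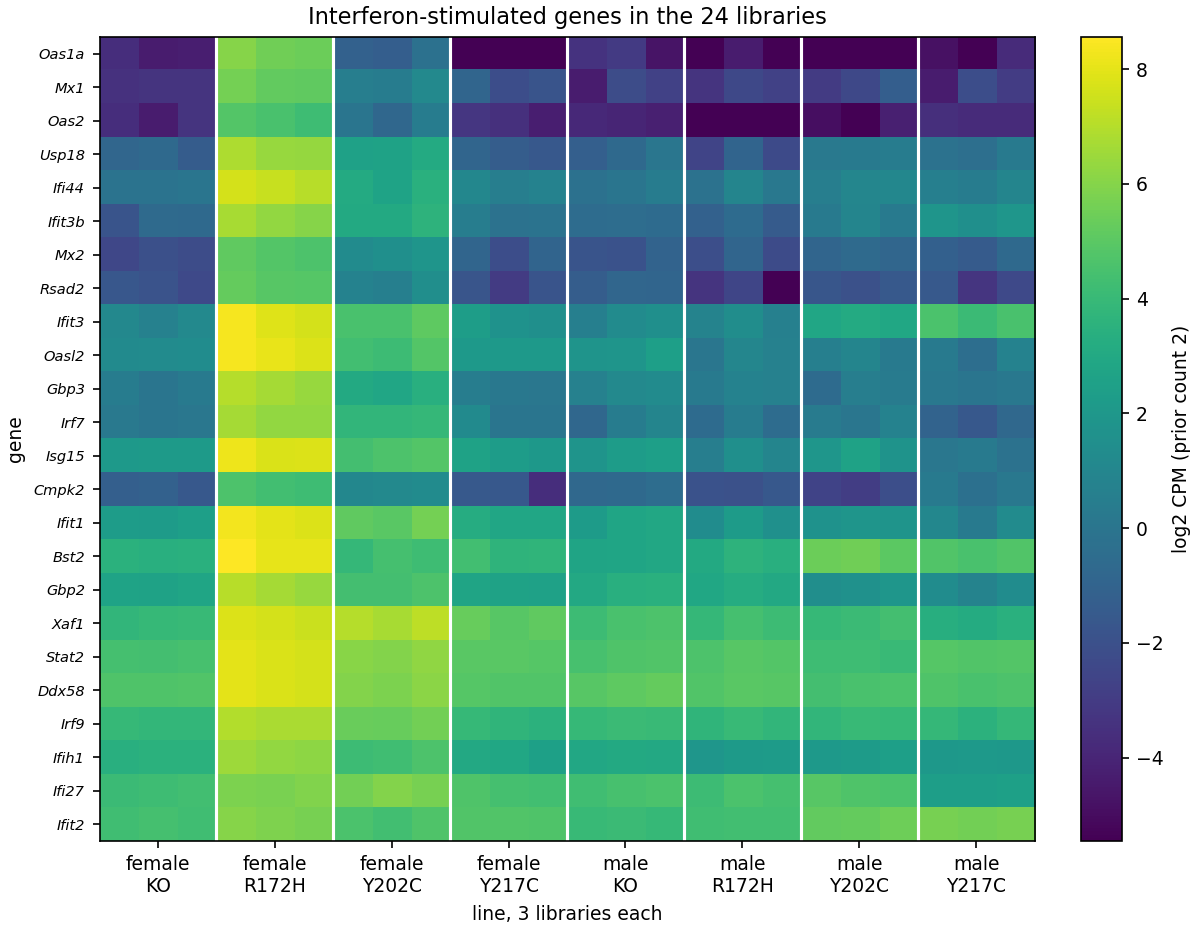
Log2 CPM (color, prior count of 2) of 24 of the 25 interferon-stimulated genes (rows, ordered by their log2 fold change in the female culture) in all 24 libraries (columns, 3 for each line). The 3 female R172H libraries form the bright block, female Y202C is the next highest, and in the other 6 lines the sum over all 25 genes is 149.9 to 240.7 CPM.

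The other lines of the series set these values in context. The summed level of the 25 genes was 564 to 706 CPM in the libraries of female Y202C and 200.5 to 241 CPM in those of female Y217C. R172H was above Y202C for 24 of the 25 at the adjusted p and above Y217C for all 25, with median log2 differences of 3.23 and 5.88. In the male culture the sum was 165.5 to 206.9 CPM in KO and 149.9 to 192 CPM in R172H, and 2 of the genes were higher and 8 lower in male R172H. The test of the difference between the female and the male change passed for 25 of 25 genes, where 58.0% of all genes passed it.

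Lists of the steps upstream were added after the values were seen, so their counts are a description. Of 20 receptors and signal transducers of the interferons, 5 of them also among the 25 above, 17 were higher and none lower. The receptor genes moved little: *Ifnar1*, a chain of the type I receptor, measured 73.2, 76.3 and 73.6 CPM in KO and 93.8, 94.2 and 88.4 CPM in R172H (0.31), and *Ifngr2*, of the receptor for interferon gamma, 70.3, 70.5 and 67.9 CPM in KO and 72.3, 73.7 and 72.1 CPM in R172H with an edgeR adjusted p of 0.26. The feedback inhibitor gene *Socs3* rose more, from 15.7, 15.1 and 16.1 to 98.9, 98.3 and 103 CPM (2.68). Interferon genes themselves were not analysed here.

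Among 18 sensors of nucleic acid and their adaptors 13 were higher and 1 lower. *Ddx58*, which makes the RNA sensor RIG-I, rose from 26.5, 25.9 and 27.6 to 253, 223 and 201.6 CPM (3.08), *Zbp1*, a sensor of left-handed nucleic acid that can start cell death, from 0.53, 0.743 and 0.763 to 44.1, 33 and 29.7 CPM (5.72), and *Tlr3*, the endosomal receptor for double-stranded RNA, from 4.06, 4.62 and 3.34 to 28.7, 25.4 and 20.9 CPM (2.64). *Tmem173*, which makes STING, the adaptor of DNA sensing, rose from 9.97, 11.5 and 10.7 to 34.5, 34 and 33.3 CPM (1.66). The DNA sensor gene *Cgas* measured 15.3, 15.3 and 13 CPM in KO and 12, 12.2 and 12.9 CPM in R172H and did not pass the threshold (edgeR adjusted p 0.0995). *Rnaseh2a*, the catalytic subunit of an enzyme that removes RNA from DNA, was the member that fell, from 64.7, 67.3 and 65.1 to 33.8, 29.7 and 32.7 CPM (-1.03, edgeR adjusted p 1.66e-12).

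Genes of MHC class I and antigen processing were all higher in R172H. The 17 tested members had a median log2 fold change of 1.94, 15 of them over 1, and a summed level of 606 to 616 CPM in KO and 1803 to 2268 CPM in R172H. *H2-K1*, a heavy chain that presents peptides to T cells, measured 36.7, 32.6 and 35.7 CPM in KO and 197, 157 and 147 CPM in R172H (2.25), and *H2-D1* 53.2, 55.9 and 54.5 CPM in KO and 229, 179 and 183 CPM in R172H (1.85). The heavy chain genes resemble one another closely, so reads may be split among them. *B2m*, the light chain they share, measured 286, 292 and 288 CPM in KO and 749, 739 and 612 CPM in R172H (1.28).

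The genes that make and load the peptides rose by differing amounts. *Tap1*, a subunit of the peptide transporter, measured 4.12, 5.02 and 5.3 CPM in KO and 83.3, 65.4 and 60.8 CPM in R172H (3.86, SE 0.167). *Psmb8* and *Psmb9*, catalytic subunits of the immunoproteasome, rose from 2.11, 2.11 and 2.09 to 24.3, 18.6 and 16.2 CPM (3.23) and from 0.275, 0.448 and 0.425 to 6.14, 4.01 and 3.99 CPM (3.62). *Nlrc5*, the transactivator of class I genes, rose from 2.05, 2.29 and 2.42 to 38.2, 30.2 and 30.6 CPM (3.87). The smallest changes were those of *Erap1*, which trims peptides, at 0.94 and of *H2-M3* at 0.90. In the male culture the same 17 genes had a median of -0.24, with 1 higher and 9 lower, and all 17 passed the test of the difference between the cultures.

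Chemokines and interleukins were higher or did not pass. Of 29 listed, 21 were in the table, with *Il1a*, *Il1b* and *Tnf* among those absent. Of the 21 tested, 18 were higher, 14 of them past a log2 fold change of 1, and none lower, with a median of 2.54. *Il1rn*, the secreted antagonist of the interleukin-1 receptor, was near the floor in KO with 0.0295, 0.128 and 0.116 CPM and measured 1150.3, 1077 and 999 CPM in R172H (log2 fold change 13.55, SE 0.147, edgeR adjusted p 4.18e-27). *Cxcl5* and *Cxcl1*, which attract neutrophils, rose from 0.982, 1.46 and 1.68 to 329.8, 362 and 357 CPM (7.99) and from 2.58, 3.37 and 4.06 to 80.2, 83.4 and 93.8 CPM (4.68). *Cxcl10*, which attracts T cells and is itself induced by interferons, rose from 0.766, 0.935 and 0.782 to 39.8, 30.9 and 30.6 CPM (5.36).

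*Ccl2*, which attracts monocytes, rose from 7.36, 7.42 and 7.97 to 108, 111 and 139.7 CPM in the female culture (3.98) and fell in the male one (-2.46, edgeR adjusted p of the difference 1.19e-19). *Il33*, an alarm cytokine of the nucleus, had the same pair of directions, with 0.452, 0.461 and 0.715 CPM in KO, 9.37, 8.32 and 8.25 CPM in R172H (3.97) and a male log2 fold change of -3.65. *Il6*, a cytokine of acute inflammation, was low in both lines with 0.815, 0.935 and 0.888 CPM in KO and 4.57, 5.42 and 5.4 CPM in R172H (2.54). *Csf1*, the growth factor of macrophages, was little changed at 644, 619 and 606 CPM in KO and 705, 726 and 670.3 CPM in R172H (0.17), and *Lif*, of the interleukin-6 family, did not pass at 16.7, 16 and 15.9 CPM in KO and 18.6, 16.6 and 16.5 CPM in R172H.

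Complement genes are a list added after the values were seen, and 10 of the 18 listed were in the table. Of these 10, 8 were higher and 2 lower. Their summed level was 32.1 to 34.5 CPM in KO and 380 to 509 CPM in R172H. It was 293 to 340 CPM in female Y202C, so much of the rise was shared with that line, and 56.3 to 73.7 CPM in female Y217C. *C3*, the central protein of the cascade, measured 0.285, 0.346 and 0.473 CPM in KO and 213, 183 and 167 CPM in R172H (8.98, SE 0.209). *C4b* rose from 1.2, 1.47 and 1.6 to 92.3, 71.7 and 56.5 CPM (5.69) and *C1s1*, a protease that starts the classical pathway, from 3.04, 3.05 and 3.5 to 87.9, 81.2 and 61.7 CPM (4.59). The inhibitor gene *Serping1* rose from 0.353, 0.384 and 0.608 to 8.55, 9.86 and 8.22 CPM (4.29). *C3ar1*, the receptor for a fragment of *C3*, was lower, from 12.1, 13 and 11.3 to 1.36, 1.26 and 1.21 CPM (-3.25) and so was *Cd55*, which protects cells from complement (2.26, 2.98 and 2.49 CPM in KO and 1.12, 1.22 and 1.32 CPM in R172H, -1.07).

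Genes that astrocytes turn on when they become reactive, some of them shared with the lists above, were split. Of 33 tested, 20 were higher and 10 lower, with a median of 1.04. *Serpina3n*, a protease inhibitor, had no read in KO and 1.87, 2.63 and 2.38 CPM in R172H, at least 71-fold higher with KO set at 3 counts in each library. *Lcn2*, an iron-carrier protein of inflammation, rose from 0.0687, 0.102 and 0.0579 to 7.13, 7.43 and 6.95 CPM (6.56), *Steap4*, a metal reductase, from 0.295, 0.435 and 0.502 to 32.8, 30.7 and 26 CPM (6.18), and *Ptx3*, a pattern-recognition protein, from 154, 159 and 163 to 719, 716 and 759 CPM (2.21). On the other side, *Cd44*, a receptor for hyaluronan, fell from 822, 839.6 and 757 to 293, 323 and 309.5 CPM (-1.39) and *B3gnt5*, a glycosyltransferase of glycolipids, from 18.1, 17.2 and 17.3 to 1.58, 2.13 and 2.09 CPM (-3.18). *Gfap* stayed near 0 in both lines, as given above.

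**Figure D3:**
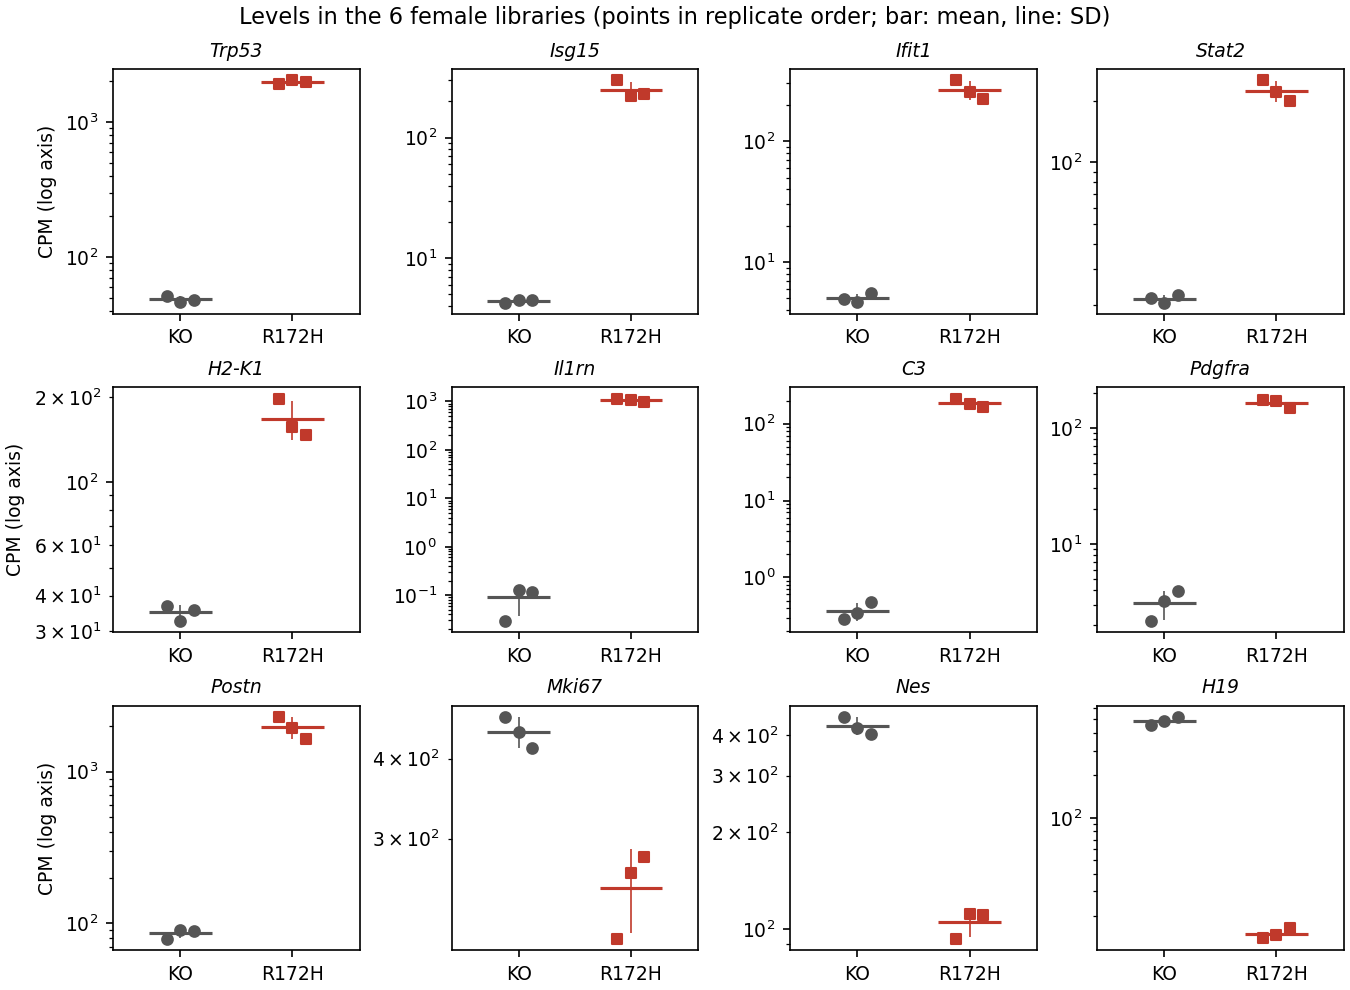
CPM on log axes of 12 genes in the 3 female KO (gray circles) and 3 female R172H libraries (red squares), in replicate order, with the mean as a horizontal bar and the SD as a vertical line. No gene shown has overlapping lines: 9 are higher in R172H, from *Trp53* to *Postn*, and *Mki67*, *Nes* and *H19* are lower.

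Most of the listed genes of DNA replication and mitosis were lower in R172H. None of 29 DNA replication genes was higher and 24 were lower, with a median log2 fold change of -0.58. Of 28 genes of mitosis and the spindle checkpoint none was higher and 27 were lower, with a median of -0.59. Among all genes 35.3% were lower, and the median was -0.01. In the male culture the medians were -0.09 and -0.11. Within the female culture, the medians of R172H against Y202C were 0.06 and -0.04 and against Y217C -0.49 and -0.70, so the lower level was shared with Y202C. The summed level of the mitosis genes was 2000 to 2424 CPM in female R172H, 2174 to 2474 CPM in female Y202C and 1357 to 1553 CPM in male Y202C.

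*Mki67*, the Ki-67 protein of dividing cells, measured 465, 439.7 and 415 CPM in KO and 209, 265 and 280.2 CPM in R172H (-0.81, SE 0.139). *Rrm2*, the subunit of ribonucleotide reductase that limits the supply of deoxynucleotides, fell the most of the replication genes, from 126, 128 and 118 to 40.4, 47.1 and 49.7 CPM (-1.44). *Mcm5*, of the helicase that unwinds origins, fell from 189.5, 192 and 185 to 94, 96.1 and 120.2 CPM (-0.87), and *Bub1*, a kinase of the spindle checkpoint, from 71, 72 and 65.9 to 27.9, 35.2 and 35 CPM (-1.09). Replicate 1 of R172H held the lowest value of all 6 libraries for each of these genes. *Tyms*, which makes thymidylate, did not pass, with 41, 40.1 and 40.5 CPM in KO and 36.5, 41.5 and 43.7 CPM in R172H (edgeR adjusted p 0.992), nor did *Cdt1*, a factor that licenses origins, with 68.1, 64.5 and 65.8 CPM in KO and 58.7, 61.4 and 66.6 CPM in R172H (0.256).

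In the list of cyclins, their kinases and the RB axis, 4 of 22 genes were higher and 14 lower. The E cyclins *Ccne1* and *Ccne2*, which drive entry into S phase, fell (log2 fold changes of -0.84 and -1.09), and *Cdk6*, the partner of the D cyclins, fell from 65.2, 61 and 56.3 to 32.5, 35.7 and 40.9 CPM (-0.74). *Cdkn2c*, an inhibitor of those kinases, rose from 33.4, 32.7 and 31.9 to 56.4, 58 and 57.4 CPM (0.81). The gene of p16 and ARF, *Cdkn2a*, measured 302, 306 and 326 CPM in KO and 353, 307 and 374 CPM in R172H and did not pass (edgeR adjusted p 0.246). *Cdkn1c*, an imprinted inhibitor, fell the most, from 87.2, 99.6 and 108 to 16.5, 14.5 and 14.7 CPM (-2.69).

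Genes that p53 activates in its normal form did not move as a group. Of 29 tested, 12 were higher and 9 lower, 41.4% and 31.0% beside 34.4% and 35.3% of all genes, with a median of 0.15. *Cdkn1a*, the inhibitor p21, measured 16.4, 16.8 and 17.1 CPM in KO and 19.6, 18.6 and 18 CPM in R172H and did not pass (edgeR adjusted p 0.0664). *Mdm2*, the ligase that degrades p53, was slightly lower at 64.1, 64.8 and 60.7 CPM in KO and 48.7, 55 and 49.6 CPM in R172H (-0.31). *Fas*, a death receptor, rose from 1.82, 1.86 and 1.94 to 10.7, 12 and 10.2 CPM (2.55), and *Ephx1*, an epoxide hydrolase, from 8.62, 10.3 and 9.95 to 54.7, 52.4 and 49.3 CPM (2.44). *Pmaip1*, which makes the pro-apoptotic protein NOXA, fell from 47, 47.8 and 46 to 4.75, 5.05 and 3.74 CPM (-3.39, SE 0.119). *Trp63*, a relative of *Trp53*, rose from 0.255, 0.102 and 0.386 to 3.86, 3.57 and 3.6 CPM (3.84).

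Neural progenitor genes had the lowest median of the lists with at least 10 genes tested. Of 13 tested, 11 were lower and 1 higher, with a median log2 fold change of -1.46, and 8 of them fell by over 1. Against female Y202C and Y217C the medians of R172H were smaller, at -0.395 and -0.31. Their summed level was 6303 to 6488 CPM in KO and 5427 to 6255 CPM in R172H. It was 5810 to 6525 CPM in female Y202C and 4901 to 5156 CPM in female Y217C. *Nes*, the filament nestin of neural stem cells, measured 458, 423 and 403 CPM in KO and 93.2, 111 and 111 CPM in R172H (-2.03, SE 0.108). *Hes1*, a target of Notch that holds progenitors back from differentiation, fell from 80.5, 76.7 and 78 to 23.2, 20.8 and 24.8 CPM (-1.77). *Sox2*, a stem cell factor, was low in both lines, with 1.54, 1.59 and 1.63 CPM in KO and 1.02, 0.949 and 0.846 CPM in R172H (-0.77). *Emx2*, a factor of the developing cortex, was the higher member, from 22.1, 21.3 and 21.1 to 36.7, 38 and 41 CPM (0.84).

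Patterning factors fell in part in families. Of 23 tested, 14 were lower and 5 higher. Of the Zic zinc finger factors of the dorsal brain and meninges, *Zic1* fell from 164, 161 and 160.5 to 42.5, 43 and 41.2 CPM (-1.94), *Zic2* from 78.4, 78.5 and 75.5 to 31.1, 30.2 and 30.4 CPM (-1.34) and *Zic5* from 46.1, 43.2 and 43.2 to 9.83, 10.9 and 10.0 CPM (-2.11). The homeobox gene *Six2* fell from 192, 177 and 190.5 to 59.1, 61.3 and 55.8 CPM (-1.67). The Dlx factors, which in the forebrain mark inhibitory neuron precursors, went the other way, with *Dlx1* at 2.44, 2.73 and 2.64 CPM in KO and 10.3, 10.7 and 10.7 CPM in R172H (2.02) and *Dlx2* at 11.3, 11.8 and 9.59 CPM in KO and 25.4, 26.6 and 26.1 CPM in R172H (1.26).

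Other astrocyte genes moved in both directions. *Slc1a3*, the glutamate transporter of young astrocytes and radial glia, measured 15.1, 20.2 and 20.9 CPM in KO and 287, 285 and 271 CPM in R172H (3.91, SE 0.11). *Aldh1l1*, a folate enzyme used as a pan-astrocyte marker, rose from 0.187, 0.154 and 0.27 to 17, 13.2 and 14.4 CPM (6.15), and *Clu*, the secreted chaperone clusterin, from 4.87, 6.6 and 6.4 to 258, 233 and 193 CPM (5.26). *Nfia*, a factor that starts gliogenesis, rose from 29, 27.2 and 28.6 to 125, 128 and 122 CPM (2.15). The gap junction gene *Gja1* fell from 215, 238 and 211 to 153, 164 and 152 CPM (-0.50). Over the 23 genes the female median was 0.53 and the male median -0.66, with 1 higher and 14 lower in male R172H.

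Markers of fibroblasts and meningeal cells were abundant in both lines and mostly higher in R172H. Of 15 tested, 11 were higher and 3 lower, and their summed level, most of it from type I collagen genes, was 24285 to 26211 CPM in KO and 42470.0 to 49421 CPM in R172H. The sum was 35090 to 41230 CPM in female Y202C and 25230 to 27120 CPM in female Y217C. *Pdgfra*, a growth factor receptor of fibroblasts and of oligodendrocyte precursors, rose from 2.17, 3.2 and 3.9 to 175, 171 and 149 CPM (5.74, SE 0.137). The proteoglycan genes *Dcn* and *Lum* rose from 1.55, 2.93 and 2.12 to 114, 107 and 93.6 CPM (5.59) and from 0.118, 0.128 and 0.174 to 20.1, 17.5 and 17 CPM (7.0). *Tbx15* and *Tbx18*, factors of mesenchymal cells, fell from 260.3, 254 and 254 to 116, 119 and 119 CPM (-1.12) and from 54.2, 53.7 and 49.7 to 34.2, 35.4 and 35.8 CPM (-0.58). The part of such cells in the collagen and matrix results was not tested.

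Markers of other cell types moved in no common direction. Of 13 neuron markers 5 were in the table, with *Stmn2*, a regulator of microtubules, higher at 10.2, 11.2 and 11 CPM in KO and 114, 123 and 123 CPM in R172H (3.48) and *Tubb3* and *Map2*, of the neuronal cytoskeleton, lower (-1.85 and -2.19). Of 15 microglia and macrophage markers 3 were in the table, summing to 45.8 to 49.6 CPM in KO and 105 to 116 CPM in R172H, nearly all of it *Tmem119* (42.4, 46.2 and 45.3 CPM in KO and 113, 102 and 105 CPM in R172H), while the receptor gene *Csf1r* was at 0.638, 0.615 and 0.55 CPM in KO and 1.16, 1.13 and 1.07 CPM in R172H. The part of such cells in the immune results was not tested. Of 7 endothelial markers 2 were higher and 3 lower, with *Flt1*, a receptor for VEGF, from 225, 234 and 206 to 42.6, 42 and 42.9 CPM (-2.38). Of 9 mural cell markers 5 were higher and 4 lower. Of 12 markers of the oligodendrocyte lineage 5 and of 6 ependymal markers 1 were in the table.

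Collagens were higher for 20 of 27 genes and lower for 5, with a median of 0.71. Their summed level was 39999 to 42346 CPM in KO and 55467 to 63529 CPM in R172H. It was 47150 to 54480 CPM in female Y202C and 36280 to 37890 CPM in female Y217C. The fibrillar collagen gene *Col3a1* measured 1422, 1612 and 1579 CPM in KO and 7392, 6391 and 6287 CPM in R172H (2.12, SE 0.0835), and *Col1a1*, of type I collagen, 12722, 13573 and 13624 CPM in KO and 24023, 20434 and 20870.0 CPM in R172H (0.71). The genes of collagen VI, *Col6a1* and *Col6a2*, rose by 1.21 and 1.22 on the log2 scale. The main chains of the basement membrane, *Col4a1* and *Col4a2*, fell from 4350.4, 4388 and 4206 to 1776, 1661 and 1684 CPM (-1.34) and from 2697, 2642 and 2589 to 1573, 1501 and 1420.0 CPM (-0.82), whereas *Col4a5* and *Col4a6*, of other chains of the same type, rose by 0.74 and 1.12. *Col7a1*, of anchoring fibrils, fell the most, from 524, 499.8 and 507 to 100.2, 98.8 and 107 CPM (-2.32). Replicate 1 of R172H was the highest R172H library for 23 of the 27 genes.

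Matrix glycoproteins and proteoglycans were higher for 18 of 27 and lower for 6. *Postn*, which makes periostin, a protein of remodeled matrix, rose from 78.5, 90.6 and 88.1 to 2303, 1938 and 1646 CPM (4.52, SE 0.157), and *Mgp*, an inhibitor of calcification, from 52, 62.1 and 62.1 to 674, 571 and 673 CPM (3.45). *Thbs1* and *Thbs2*, related thrombospondins that act on vessels and synapses, went in opposite directions. *Thbs1* fell from 9866, 10636 and 10170.0 to 2165, 1861 and 1774 CPM (-2.40) and *Thbs2* rose from 159, 186 and 176 to 532, 487 and 484 CPM (1.53). *Loxl2*, which cross-links collagen, fell from 399, 406 and 383 to 125, 132 and 122 CPM (-1.64). Fibronectin, *Fn1*, was nearly level, at 11330.0, 11701 and 11511 CPM in KO and 13083, 11940.0 and 12634 CPM in R172H (0.12, edgeR adjusted p 0.0451), a call that was lost without any KO replicate and without R172H replicate 1 or 3 (log2 fold changes of 0.09 to 0.14).

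Of 26 matrix proteases and their inhibitors 15 were higher and 7 lower. *Timp3*, an inhibitor bound to the matrix, rose from 159.9, 182 and 173 to 1279, 1187 and 1035 CPM (2.77), and *Adamts9*, a protease that cuts proteoglycans, from 1.38, 1.06 and 1.0 to 43.4, 39.8 and 40.7 CPM (5.16). *Adam19* and *Adam12*, membrane-bound proteases, fell from 307, 299 and 291 to 109.6, 115 and 115 CPM (-1.40) and from 141, 155 and 139 to 58.1, 58.7 and 62.5 CPM (-1.28). The gelatinase gene *Mmp9* was low in both lines, with 0.0589, 0.154 and 0.193 CPM in KO and 8.38, 6.62 and 5.93 CPM in R172H (5.68).

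The Wnt list held large differences among ligands and secreted inhibitors. Of 44 tested, 24 were higher and 12 lower. The ligand gene *Wnt10a* rose from 0.0982, 0.192 and 0.348 to 53.3, 52.6 and 52.1 CPM (7.93) and *Wnt5a*, which acts mainly without beta-catenin, from 28.3, 28.6 and 26.5 to 102, 92.9 and 88.9 CPM (1.77). The secreted inhibitors *Sfrp1* and *Sfrp2* rose from 14.1, 17.6 and 15.1 to 412, 402 and 346 CPM (4.64) and from 114, 199.6 and 213 to 1830.0, 1421 and 1301 CPM (3.11), while *Dkk2*, another inhibitor, fell from 116, 123 and 111 to 39.3, 39.3 and 41.4 CPM (-1.54). *Axin2*, a target often used to read beta-catenin activity, did not pass at 1.08, 1.51 and 1.05 CPM in KO and 1.56, 1.51 and 1.2 CPM in R172H (edgeR adjusted p 0.224), and the nuclear effector *Lef1* did not pass either (0.824), while *Tcf7*, its relative, fell from 9.47, 8.47 and 9.19 to 2.78, 3.28 and 2.71 CPM (-1.63).

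Other growth factor and guidance families held members that moved in either direction. The IGF binding protein genes *Igfbp2* and *Igfbp4* rose from 237, 248 and 252 to 1279, 1101 and 1093 CPM (2.24) and from 236, 281 and 288 to 882, 720.4 and 723 CPM (1.53), and the receptor gene *Igf1r* fell from 187, 173 and 174 to 137, 136 and 138 CPM (-0.38). Of 12 genes of the EGFR family and its ligands 6 were lower and 2 higher, with *Egfr*, the receptor for epidermal growth factor, from 143, 145 and 139 to 56.5, 53.9 and 52.8 CPM (-1.39) and the ligand gene *Hbegf* from 121, 120.1 and 109 to 34.2, 32.3 and 36.5 CPM (-1.76). The activin subunit *Inhba* fell from 284, 306 and 279.9 to 54.5, 57.5 and 59.9 CPM (-2.34) and *Bmp4*, a ligand that drives astrocyte fate, rose from 8.86, 9.97 and 11.8 to 71.2, 65.7 and 64 CPM (2.71). *Slit3*, a guidance cue, rose from 15.6, 18.3 and 20.3 to 619, 529 and 553 CPM (4.97), and *Sema7a*, a membrane-anchored semaphorin, fell from 74, 71.6 and 66.2 to 7.98, 7.34 and 8.22 CPM (-3.17). *Agt*, which makes angiotensinogen, rose from 0.118, 0.0256 and 0.232 to 40.9, 31 and 28.7 CPM (7.96), and *F2rl1*, a receptor that proteases activate, fell from 28.6, 27.7 and 26 to 1.38, 1.57 and 1.78 CPM (-4.11).

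Targets of YAP and TEAD, the effectors of the Hippo pathway, were lower for 12 of 17 and higher for 3. *Ccn2*, a matricellular protein, fell from 957, 939.7 and 878 to 376, 339 and 330.3 CPM (-1.41) and *Ankrd1*, an ankyrin repeat protein, from 105, 101 and 94.9 to 34.1, 31.3 and 27.8 CPM (-1.69). *Ccn1*, of the same family as *Ccn2*, fell less (-0.27). *Yap1* itself was slightly lower (-0.14, and -0.10 without R172H replicate 2, no longer past the threshold), and the TEAD factor genes *Tead2* and *Tead4* were lower (-1.07 and -1.11).

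**Figure D4:**
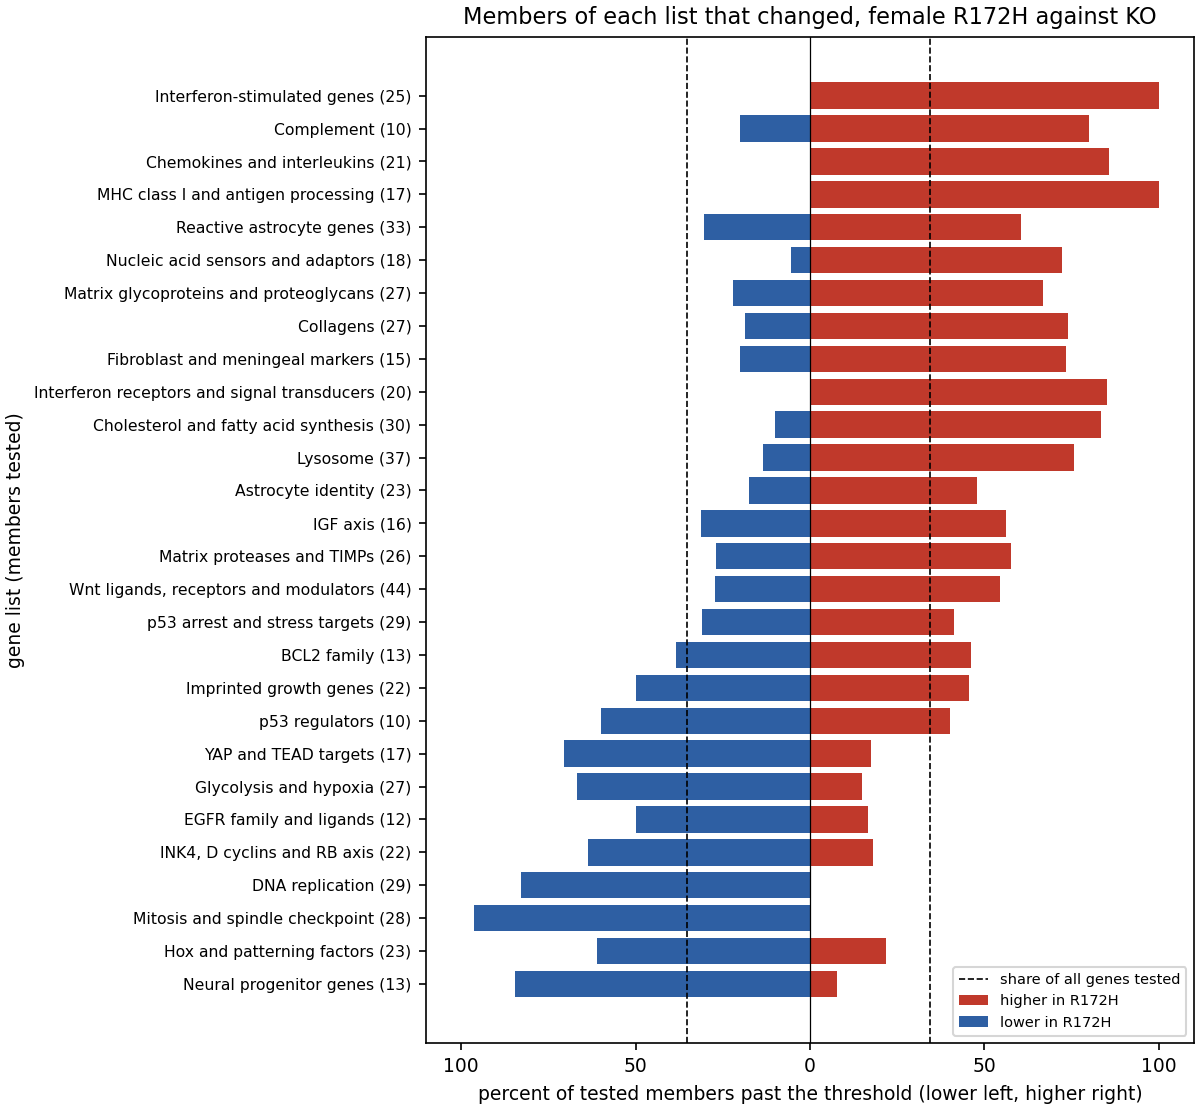
Percent of the tested members of 28 gene lists that were higher (red, to the right) or lower (blue, to the left) in female R172H than in female KO, ordered by the list's median log2 fold change, with dashed lines at the shares of all genes, 34.4% higher and 35.3% lower. Interferon-stimulated genes and MHC class I reach 100% higher, and mitosis reaches 96.4% lower.

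Metabolic genes split by pathway. Of 30 genes of cholesterol and fatty acid synthesis 25 were higher and 3 lower. *Sqle*, which makes squalene epoxide, rose from 106, 103 and 103 to 216, 212 and 196 CPM (1.00) and *Scd1*, which desaturates fatty acids, from 202.5, 197 and 191 to 562, 575 and 544 CPM (1.51). The fatty acid synthase gene *Fasn* was lower, at 816, 792 and 759.8 CPM in KO and 501, 476 and 523 CPM in R172H (-0.66).

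Lysosomal genes were higher for 28 of 37 and lower for 5, among them *Ctsz*, a protease, from 58.9, 59.7 and 58.6 to 206, 187 and 203 CPM (1.75), and *Npc2*, which moves cholesterol out of the lysosome, from 129, 141 and 137 to 255, 222 and 224 CPM (0.78). Genes of glycolysis and hypoxia were lower for 18 of 27 and higher for 4. *Hk2*, an inducible hexokinase, fell from 88.6, 87.3 and 82.5 to 36.3, 35.4 and 39.8 CPM (-1.21), *Ldha*, which makes lactate, from 899, 921 and 873 to 478, 469.7 and 561 CPM (-0.84), and *Slc16a3*, which exports it, from 123, 124 and 119.8 to 31.5, 31.5 and 40.3 CPM (-1.82). *Hif1a*, the hypoxia factor, did not pass at 138, 146 and 135 CPM in KO and 154, 171 and 150.4 CPM in R172H (edgeR adjusted p 0.0594).

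Imprinted genes that bear on growth moved in both directions, and 17 of 22 moved by over 1 on the log2 scale, where 17.2% of all genes did. *H19*, a maternally expressed noncoding RNA, fell from 460.0, 483 and 523 to 14, 14.7 and 16.5 CPM (-5.02, SE 0.145), while *Igf2*, its paternally expressed neighbor, rose from 19.7, 19.3 and 19.5 to 55.8, 53.6 and 47.1 CPM (1.42). *Grb10*, an adaptor that restrains growth, fell from 630.5, 623 and 623 to 168, 158 and 153 CPM (-1.97) and *Nnat*, a membrane protein of developing brain, from 47.3, 46.6 and 47.3 to 5.97, 5.85 and 6.47 CPM (-2.95). *Meg3* and *Rian*, noncoding RNAs of 1 cluster, fell (-1.19 and -1.17), and *Dlk1*, the paternally expressed gene of the same cluster, rose from 2.04, 2.38 and 1.99 to 78.6, 67.5 and 69.4 CPM (5.08). *Mest*, also paternally expressed, rose from 5.82, 5.85 and 5.26 to 193, 157 and 141 CPM (4.86), and *Peg3* from 269, 262 and 259 to 600.4, 586 and 576 CPM (1.16). Which allele the reads came from was not analysed here.

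No order is given for the 10 largest fitted rises among genes with at least 10 counts in every R172H library, since it depends on the prior count for genes at or near 0 in KO. *Meox2*, a homeobox factor of mesoderm, had no read in KO and 21.1, 21.6 and 18.2 CPM in R172H, at least 628-fold higher. *Cxcl9*, a chemokine that interferon gamma induces, was also without a read in KO and measured 16.1, 11.4 and 8.82 CPM in R172H, at least 375-fold higher. *Agtr2*, a receptor for angiotensin, had 2 counts in 1 KO library and 21.3, 20.2 and 17.6 CPM in R172H, a ratio of 2761-fold (interval 764 to 22801), whose interval is an exact 95% one and, like all such intervals here, covers counting error only. The uncharacterized gene *AW551984* had 0, 0.0256 and 0.0193 CPM in KO and 116, 104 and 95.8 CPM in R172H, and *Hp*, which makes haptoglobin, 0.0196, 0.0128 and 0.0386 CPM in KO and 81.4, 78.5 and 85.4 CPM in R172H. *Il1rn*, *Serpina3n*, the Wnt and BMP antagonist *Sostdc1* and the interferon-inducible *Ifi206* were also among the 10.

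Among the largest falls, *Lce1h*, of the late envelope proteins of skin, measured 10.4, 9.67 and 9.75 CPM in KO and 0, 0 and 0.0152 CPM in R172H, a ratio of 1589.5-fold (interval 439.6 to 13131). *Xirp2*, an actin-binding protein of muscle, measured 11, 11.4 and 8.68 CPM in KO and 0, 0 and 0.0229 CPM in R172H, and *Zdbf2*, a paternally expressed imprinted gene, 25.3, 22.3 and 20.2 CPM in KO and 0.0424, 0 and 0.0381 CPM in R172H. *Pou3f3*, a factor of the developing cortex, fell from 1.0, 1.01 and 1.34 CPM to no read, at least 38.7-fold lower. *Wfdc2*, a secreted protease inhibitor, measured 3.75, 3.32 and 4.02 CPM in KO and 0.0424, 0 and 0.0152 CPM in R172H. Over the whole table, 11 genes had no read in KO and over 3 counts in every R172H library, and 9 genes had the reverse.

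The 10 largest rises in CPM, which is not corrected for gene length, included the matrix genes *Col1a1*, *Col1a2*, *Col3a1*, *Bgn*, *Postn* and *Sparc*. The others were the Wnt inhibitor gene *Sfrp2*, *Trp53* and the mitochondrial genes *mt-Co1* and *mt-Cytb*. *mt-Co1*, of cytochrome oxidase, measured 4799.6, 4691 and 4579 CPM in KO and 6589, 7713 and 6400.1 CPM in R172H (0.56). The largest falls were *Thbs1*, the actin gene *Actb* (9234, 9066 and 8832 CPM in KO and 6368, 5432 and 6796 CPM in R172H, -0.55), *Col4a1*, the matrix gene *Fbln2*, the filamins *Flna* and *Flnc*, the noncoding RNA *Gm26917*, the myosin gene *Myh9*, *Col4a2* and the tubulin gene *Tubb5*. *Actb*, *Flna*, *Flnc* and *Myh9* all belong to the actin cytoskeleton, and their log2 fold changes lay between -1.29 and -0.48.

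The difference between R172H and KO was unlike in the female and the male culture for many genes. The 2 differences share no library, and their difference passed an adjusted p of 0.05 for 8365 genes (58.0%). *Meox2* and *Agtr2* had no read in either male line and did not pass (edgeR adjusted p 0.99986 for both), with an SE of 36534 for *Meox2*. So genes read only in the female culture can be missing from this count. In 1718 genes (11.9%) both differences passed and had opposite directions. The male lines differed in 5872 genes (40.7%). Among the lists, interferon-stimulated genes had a female median of 5.83 and a male median of -0.30, reactive astrocyte genes 1.04 and 0.02, and neural progenitor genes -1.46 and -0.09. With 1 culture and 1 line of each kind per sex, sex cannot be told apart from the culture and the line.

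**Figure D5:**
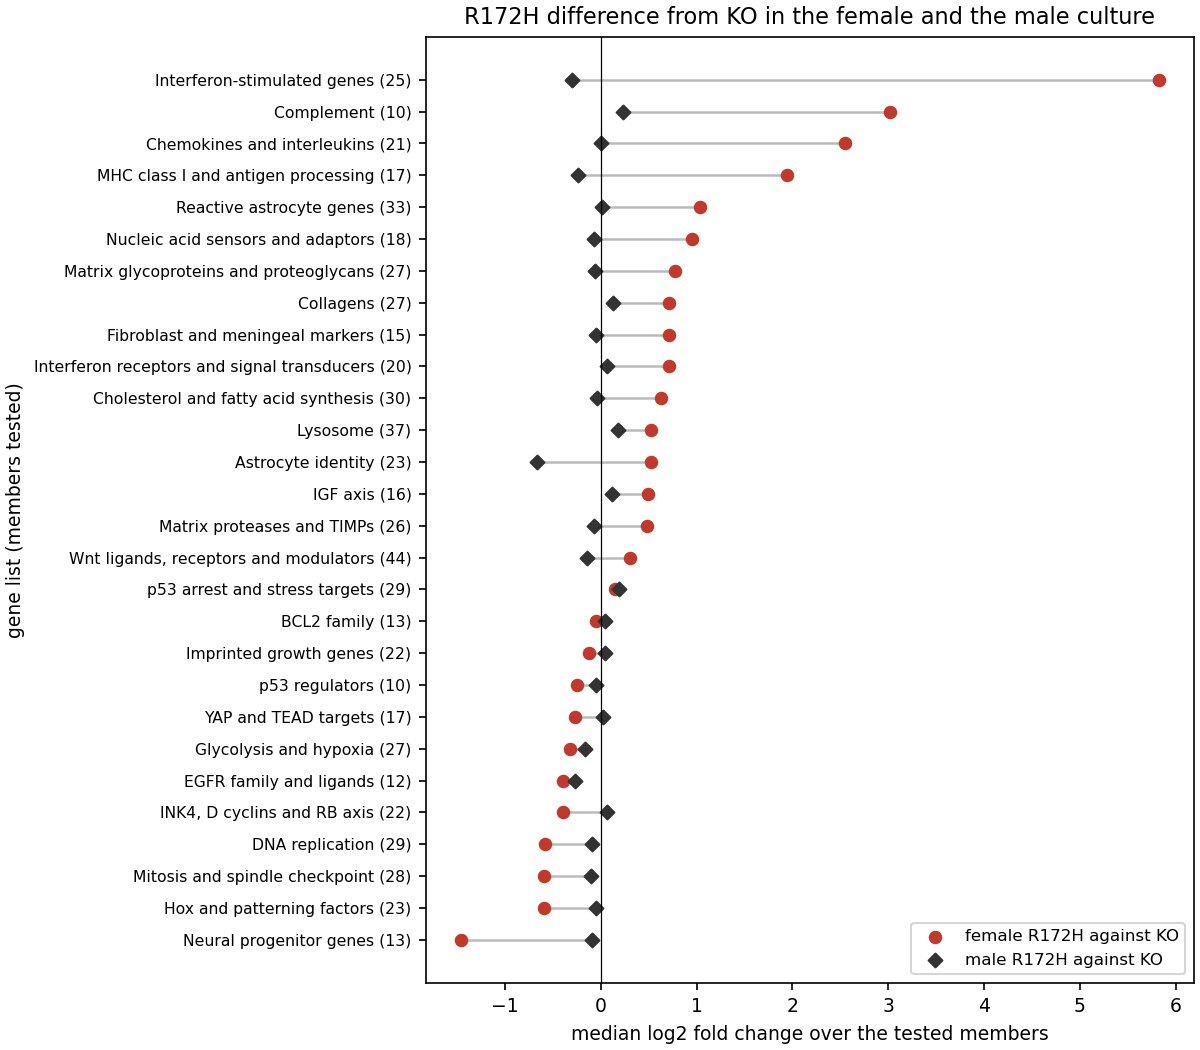
Median log2 fold change of R172H against KO over the tested members of 28 gene lists in the female (red circles) and the male culture (black diamonds), with a gray line joining the 2. The interferon-stimulated genes have the widest gap, from -0.30 to 5.83, and the p53 targets lie together at 0.19 and 0.15.

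Genes that set R172H apart from every other line of the female culture were counted next. In 675 genes (4.68%) R172H was above KO, Y202C and Y217C by a log2 difference over 1 each, and in 193 genes (1.34%) it was below all 3. The higher genes held 23 of the 25 interferon-stimulated genes, with *Ifi27* and *Xaf1* left out, 13 of 33 reactive genes, 8 of 21 chemokines and interleukins and 8 of 17 genes of MHC class I and antigen processing. The 3 comparisons share the R172H libraries, so these counts are not independent of the ones above. Of the higher genes, *Myh2*, a myosin of fast muscle, measured 0.00982, 0.0769 and 0.0579 CPM in KO, 12.7, 8.94 and 7.85 CPM in R172H, 0.035 ± 0.0478 CPM (SD, n = 3) in Y202C and 0 in Y217C. Of the lower ones, *Crmp1*, which relays semaphorin signals in neurons, measured 42.9, 40.1 and 39.1 CPM in KO, 3.35, 2.81 and 3.22 CPM in R172H, 35.6 ± 3.36 CPM in Y202C and 44.4 ± 0.371 CPM in Y217C. *Satb1*, a chromatin organizer, measured 5.18, 5.84 and 4.88 CPM in KO, 0.0212, 0.117 and 0.168 CPM in R172H, 1.21 ± 0.179 CPM in Y202C and 0.981 ± 0.148 CPM in Y217C.

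By chromosome, the median log2 fold change lay between -0.12 and 0.13 except on chromosomes 12, 14, 15 and 19, the mitochondrial genome and the 7 genes of chromosome Y. On chromosome 14, 279 of 496 genes were higher and 103 lower (median 0.25), on chromosome 15, 302 of 551 higher and 103 lower (0.23), and on chromosome 19, 253 of 489 higher and 105 lower (0.21). On chromosome 12, 92 of 494 genes were higher and 273 lower (-0.30). In the male culture the medians were -0.32, 0.04, 0.23 and -0.04 for chromosomes 14, 15, 19 and 12. DNA copy number was not analysed here.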

How the data were processed

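PolyA RNA from 24 platings (8 lines, 3 each) was sequenced, and reads were aligned with STAR 2.5.1a and counted per gene by the authors with featureCounts against Ensembl annotation of GRCm38, ribosomal and low genes removed. The deposited values are read counts, unnormalized, and strand use is not given in the sources used here, so antisense and overlapping genes cannot be told apart. Symbols came from GENCODE M21 (14350 of 14427 IDs matched) and promoters from RefSeq (GRCm38.p6).

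Counts were fitted in edgeR 4.0.16 (R 4.3.3, TMM, quasi-likelihood) with 1 mean for each of the 8 lines over all 24 libraries, for genes over 1 CPM in at least 2 libraries. Scripts were tested on simulated data. Alternatives were limma 3.58.1 with voom quality weights, DESeq2 1.42.0, its size factors, other filters, only the 6 libraries, a replicate block, an adjusted p of 0.01 and leaving out each library.

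Genes named were *Trp53*, members of gene lists, the 10 largest rises and falls in log2 fold change (if all libraries of the higher line held 10 counts or more) and in CPM, and the 5 largest each way for the difference between cultures and for genes apart from all other female lines. The genes of chromosome Y were named outside this rule, after their values were seen. Members and lists were chosen with earlier results of these data known. The lists of interferon receptors, nucleic acid sensors and complement, and the promoter core, were chosen after values were seen. Some genes that the rule names are not reported here.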

Additional observations from a re-analysis of the deposited data

Results flagged for a closer look

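The change from KO to R172H was unlike in the female and the male culture for 8365 genes by the test of the difference (edgeR quasi-likelihood, adjusted p of 0.05 or less). The 5 genes furthest above in the female culture and the 5 furthest below are given here. The fitted differences (female minus male log2 fold change) stand with the mean CPM of each line, since those of genes at or near 0 in a line depend on the prior count and are not sizes to be read closely. All 10 differences passed the test.

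*Ms4a4d*, a membrane protein, differed by 16.71, with 0.0161 ± 0.0279 CPM (SD, n = 3) in female KO, 4.35 ± 0.763 in female R172H, 0.668 ± 0.10 in male KO and 0 in male R172H. *AW551984* differed by 15.31, with 0.015 ± 0.0133, 106 ± 10.2, 0.068 ± 0.0718 and 0.0117 ± 0.0129 CPM in the same order. *Ebf3*, a transcription factor of neurons and other lineages, differed by 14.83, with 0.0603 ± 0.0487, 29.1 ± 1.75, 0.0895 ± 0.0682 and 0 CPM. Of these 4 lines, female R172H held the highest level of each of the 3 genes. *Pi15*, a secreted peptidase inhibitor, differed by 14.04, with 0.212 ± 0.105, 22.3 ± 2.29, 1.37 ± 0.42 and 0.00852 ± 0.00737 CPM. *Cxcl9* differed by 14.01, with 0, 12.1 ± 3.71, 0.0091 ± 0.00804 and 0.00323 ± 0.00559 CPM.

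*Lce1h* differed by -9.50, with 9.93 ± 0.386, 0.00508 ± 0.0088, 3.44 ± 1.38 and 1.89 ± 0.879 CPM in female KO, female R172H, male KO and male R172H. *Wfdc2* differed by -9.32, with 3.69 ± 0.353, 0.0192 ± 0.0215, 0.0769 ± 0.0452 and 0.262 ± 0.172 CPM. The noncoding RNA *1700030C10Rik* differed by -9.26, with 0.866 ± 0.116, 0, 1.1 ± 0.187 and 1.12 ± 0.0739 CPM. *Zdbf2* differed by -9.06, with 22.6 ± 2.54, 0.0268 ± 0.0233, 11.8 ± 0.783 and 8.21 ± 1.06 CPM. *Kcnn2*, a potassium channel, differed by -6.71, with 0.281 ± 0.0161, 0, 0.24 ± 0.0219 and 0.121 ± 0.0561 CPM. Female R172H was the lowest of the 4 lines for each of the last 5.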

How the results depend on the processing

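The number of genes that differed was 8670 to 10647 over all alternatives, against 10060, and 9384 to 9811 when 1 of the 6 libraries was left out. Past a log2 fold change of 1 it was 1678 to 2583, against 2483, with the lowest value, 1678, under the stricter filter of over 5 CPM in at least 3 libraries, where fewer genes were tested. The difference between the cultures passed for 6816 to 9248 genes, against 8365, and 606 to 889 genes set R172H apart from the other female lines, against 868. Tests without the filter gave the same counts, since every deposited gene passed it. The share of higher genes stayed between 49.2% and 51.6% of the genes that differed.

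Replicate numbers are shared by the lines, but libraries with the same number did not deviate together (correlations of -0.0871, -0.0229 and -0.0991 for numbers 1, 2 and 3), so the numbers do not pair them. With the replicate number as a block, 9963 genes differed, 2486 past a log2 fold change of 1, 8220 between the cultures, and 870 set R172H apart. These differ from the values without the block by less than 1.5 times.

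For 170 named genes 2195 of 2205 log2 fold changes under 13 alternatives kept their side of the threshold. The other 10 fell short of it with 1 library left out, in *Fn1*, *Yap1*, *Id1* and *Id3*. None that passed in the main fit or in the alternative changed direction. For genes that passed in neither, direction was not compared. A further 5 had no value, since the gene was not tested there. Of 364 medians of 28 gene lists, 327 moved by less than the spread between replicates and 37 by more, none with a change of sign. Under the stricter filter, which tests fewer members, the median of chemokines and interleukins went from 2.54 to 3.31, of complement from 3.02 to 3.75 and of the EGFR family and its ligands from -0.40 to -0.87. With only the 6 libraries compared in the fit, that of neural progenitor genes went from -1.46 to -1.06, where 10 of its 13 members were tested. Depth limits genes at a few counts. Bounds are given for genes without a read in 1 line, and ratios with counting intervals for some with at most 3 counts in every library of a line. Other genes at a few counts carry a fitted log2 fold change that rests on those counts, such as *Il1rn* with 3, 10 and 12 counts in KO.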

Other observations

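Adhesion genes moved in both directions, in shares near those of all genes. Of 13 cadherins and protocadherins 5 were higher and 5 lower in female R172H, 38.5% each, beside 34.4% and 35.3% of all genes. *Cdh2*, N-cadherin of neural and mesenchymal cells, measured 579, 564 and 541 CPM in KO and 212, 219 and 229 CPM in R172H (-1.35, SE 0.076), and *Cdh10* 30.3, 30.8 and 27.5 CPM in KO and 3.68, 3.86 and 4.1 CPM in R172H (-2.93). *Cdh3*, P-cadherin, rose from 19, 18.3 and 20.5 to 139.7, 132 and 131 CPM (2.80) and *Cdh11*, of mesenchymal cells, from 249, 266 and 255 to 525, 505 and 479 CPM (0.97). Of 27 integrins and laminins 11 were higher and 10 lower (40.7% and 37.0%). *Lama4*, a laminin chain of vessels, rose from 16.7, 23.5 and 25.3 to 205, 186 and 178 CPM (3.12) and *Itga11*, a collagen receptor, from 41.5, 52.1 and 55 to 239.6, 209 and 187 CPM (2.10), while *Lama2* fell from 237, 233 and 227 to 118, 115 and 119 CPM (-0.99) and *Lamb1* from 688, 716 and 679 to 479, 469 and 469 CPM (-0.56).

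In the BMP list 13 of 19 genes were higher and 5 lower. Of its secreted antagonists, *Nog*, noggin, rose from 0.51, 0.397 and 0.599 to 5.26, 5.82 and 5.06 CPM (3.41) and *Fst*, follistatin, from 1.63, 1.77 and 1.64 to 9.42, 8.12 and 7.49 CPM (2.31). Of the Id genes, targets of BMP signaling, *Id2* and *Id4* rose by 0.87 and 0.53 on the log2 scale. *Id1* and *Id3* rose by 0.32 and 0.19, calls that were lost without KO replicate 1 (0.28 and 0.15) and without R172H replicate 1 (0.26 and 0.11). In the Notch list 4 of 13 were higher and 4 lower, 30.8% each, near the shares of all genes (34.4% and 35.3%). The target genes *Hey2* and *Nrarp* fell (-1.71 and -2.64), and the receptor gene *Notch3* rose from 11.1, 12.3 and 14.4 to 51.2, 47.1 and 48.2 CPM (1.95). Of 14 AP-1 and ATF genes 5 were higher and 6 lower (35.7% and 42.9%). *Fosl1* fell from 116, 99.8 and 94.6 to 32.2, 38.9 and 39.3 CPM (-1.49) and *Fos* rose from 16.8, 16.7 and 18.4 to 83.3, 58.3 and 55.1 CPM (1.92). *Tfap2b*, a factor of neural crest, rose from 22.9, 22.6 and 25.1 to 247, 253 and 231 CPM (3.37). Of 17 targets of NRF2, the factor of the oxidative stress response, 11 were higher and 4 lower. *Mgst1*, a glutathione transferase of membranes, rose from 0.0589, 0.0256 and 0.135 to 20.9, 18.7 and 19.7 CPM (7.97) and *Gclc*, the catalytic subunit of the first enzyme of glutathione synthesis, fell from 60.2, 56.4 and 56.2 to 31.8, 34.6 and 36 CPM (-0.75).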
